A study of Mus musculus with 6 samples.

Results

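The cytosolic ribosomal proteins were described here as every gene of the deposited table whose symbol follows the Rpl, Rps, Rplp0 to Rplp2 or Rpsa naming, with the S6 kinases and Rps19bp1 left out. The rule found 93 of 21936 listed genes and used no measured value. Of these, 31 code for proteins of the small (40S) subunit, 46 for proteins of the large (60S) subunit, 8 are paralogs, 7 carry a pseudogene symbol and 1, Rps23rg1, is none of these. The data are polyadenylated RNA counts from PAM212, a mouse line labelled as keratinocytes and grown in DMEM with fetal bovine serum. In 3 libraries the cells had been infected with a lentivirus that carries the mouse gene of miR-28-3p (overexpression), and 3 control libraries came from PAM212 cells labelled as not treated. The sources used here do not give the vector content of the controls, if any, nor the origin of the 3 libraries of a group (separate cultures or repeats), so p-values measure only the spread between these libraries, which may be technical. The design line of the series names melanocytes, while every sample label names keratinocytes.

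Libraries held 14309898 to 16383374 counted reads. The labelled cell type was checked against marker lists in CPM, a gene's counts relative to the library total after TMM scaling (edgeR's correction for library composition). The 13 keratinocyte markers summed to 1161 to 1185 CPM in the controls and 1480 to 1515 CPM with overexpression, with Krt5 and Krt6a at 0 in every library and Krt14 at 30.5 and 39.1 CPM. Of the 10 that were tested, 6 were higher and 4 lower, where 42.1% and 43.9% of all genes tested were. The higher ones were Krt14, Cdh1 (382 to 532 CPM), Itga6 (139 to 329 CPM), Dsp (145 to 212 CPM), Sfn (33.1 to 87.9 CPM) and Col17a1 (1.56 to 2.96 CPM). The lower ones were Perp (220 to 152 CPM), Itgb4 (197 to 141 CPM), Trp63 (1.13 to 0.110 CPM) and Krt15. Krt17 was not tested, at 0.234 and 0.0671 CPM. Krt15 was at 21.5 CPM in the controls and at 0 in all 3 overexpression libraries. The 8 melanocyte markers summed to 8.05 to 9.78 and 7.33 to 8.22 CPM with Kit and Tyr at 0. Most of that sum was Mitf (7.02 to 4.92 CPM). Mitf and Pmel (1.86 to 0.845 CPM), the 2 tested, were lower, where 43.9% of all genes tested were. Dct and Tyrp1 were not tested, at 0 in every control and at means of 0.690 and 0.880 CPM with overexpression. Mlana was at 0.0633 and 0.200 CPM and Sox10 at 0.0209 and 0.132 CPM. The 7 fibroblast markers summed to 43.3 to 52.0 and 16.2 to 17.1 CPM with Lum at 0. Most of that sum was Pdgfra in both groups (mean 44.9 CPM in the controls), with Col1a1 at 2.66 CPM in the controls. Col1a2, Col3a1, Dcn and Pdgfrb had group means of 0.126 CPM or less. The 5 leukocyte markers summed to 17.5 to 20.7 and 4.11 to 5.81 CPM with Cd3e at 0. Most of the leukocyte sum was Cd68 in both groups (mean 19.1 CPM in the controls). Cd79a, Itgam and Ptprc had group means of 0.173 CPM or less. The part of these marker differences in the results on ribosomal proteins was not tested.

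Ribosomal proteins are made in near-equal numbers, since each ribosome holds a single copy of most of them, and they are assembled with ribosomal RNA in the nucleolus. Their mRNAs are among the most abundant in dividing cells. They start with a run of pyrimidines at the 5′ end (a TOP motif), through which the kinase complex mTORC1 and the RNA-binding protein LARP1 control their translation and stability. In the epidermis, basal keratinocytes depend on this supply for growth.

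The sequences below show the agent of the experiment and the start sites that give TOP mRNAs their name. The microRNA that was overexpressed is shown 5′ to 3′ with its seed, bases 2 to 8, in capitals. It is encoded at chr16:24827908-24827929, plus strand, and its RefSeq sequence follows.
mmu-miR-28a-3p: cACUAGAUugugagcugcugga
The RefSeq promoters (build GRCm38.p6) matched 66 of the 93 members by symbol, and 57 of 77 genes of the 40S and 60S subunits. Of each gene shown, 30 bases are printed on the gene's strand, 15 before and 15 from the annotated start, with a tract of C followed by at least 7 more pyrimidines in capitals. Rpl28 (chr7:4792950-4792979, plus), Rps27 (chr3:90213634-90213663, minus), Rpl38 (chr11:114668565-114668594, plus) and Rps9 (chr7:3704026-3704055, plus) fell by more than 2-fold and hold such a tract. Rps28, Rpl23, Rps21 and Rpl22, which fell further, hold none in the same 30 bases.
Rpl28: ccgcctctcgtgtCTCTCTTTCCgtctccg
Rps27: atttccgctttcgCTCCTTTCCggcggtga
Rpl38: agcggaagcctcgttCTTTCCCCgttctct
Rps9: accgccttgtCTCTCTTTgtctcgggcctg
Rps18 (chr17:33955651-33955680, minus) fell little and Rps10 (chr17:27635230-27635259, minus) did not pass the test, and both hold such a tract. Rps2 (chr17:24720048-24720077, plus) and the paralog Rpl7l1 (chr17:46782642-46782671, minus) were higher and hold none in these 30 bases, while the paralog Rps27l, also higher, holds one at 1 of its 2 annotated starts.
Rps18: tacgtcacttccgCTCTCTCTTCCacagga
Rps10: gcgccgcgcacgCCCCTTCCTTTCCagcct
Rps2: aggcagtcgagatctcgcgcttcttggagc
Rpl7l1: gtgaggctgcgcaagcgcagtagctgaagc

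The mRNAs of both ribosomal subunits fell with miR-28-3p overexpression. In the controls the 93 genes took 9.13%, 9.20% and 9.03% of all counts (mean 9.12% ± 0.0840, SD, n = 3). With overexpression they took 4.24%, 4.33% and 4.35% (mean 4.31% ± 0.0593, SD, n = 3). All overexpression libraries thus lay below all controls, at 0.472 of the control share. Counts are shares of a library, so in these bulk samples fewer cells of a type and less RNA per cell cannot be told apart. By gene, 86 members passed the filter on low counts. Of these, 78 fell at an adjusted p under 0.05 (edgeR quasi-likelihood test over 11809 genes), where 43.9% of all genes tested fell. Only 4 members rose (Rpl7l1, Rps2, Rpl21 and Rps27l), where 42.1% of all genes did, and with upper quartile scaling in place of TMM only Rpl7l1 passed and Rps27l changed sign. The remaining 4 did not pass the test (Rpl36al, Rps10, Rpl10-ps3 and Rpl24). The median log2 fold change of the 86 members was -1.05, and that of all genes tested was -0.03. In 49 members the fall reached 2-fold, a size met by 21.0% of all genes tested, and 68 fell beyond 1.5-fold in a test of that size, where 27.0% of all genes did. None rose beyond 1.5-fold, where 23.4% of all genes did. Every overexpression library lay below every control in 79 members (43.8% of all genes) and above in 3 (42.2% of all genes).

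**Figure D1:**
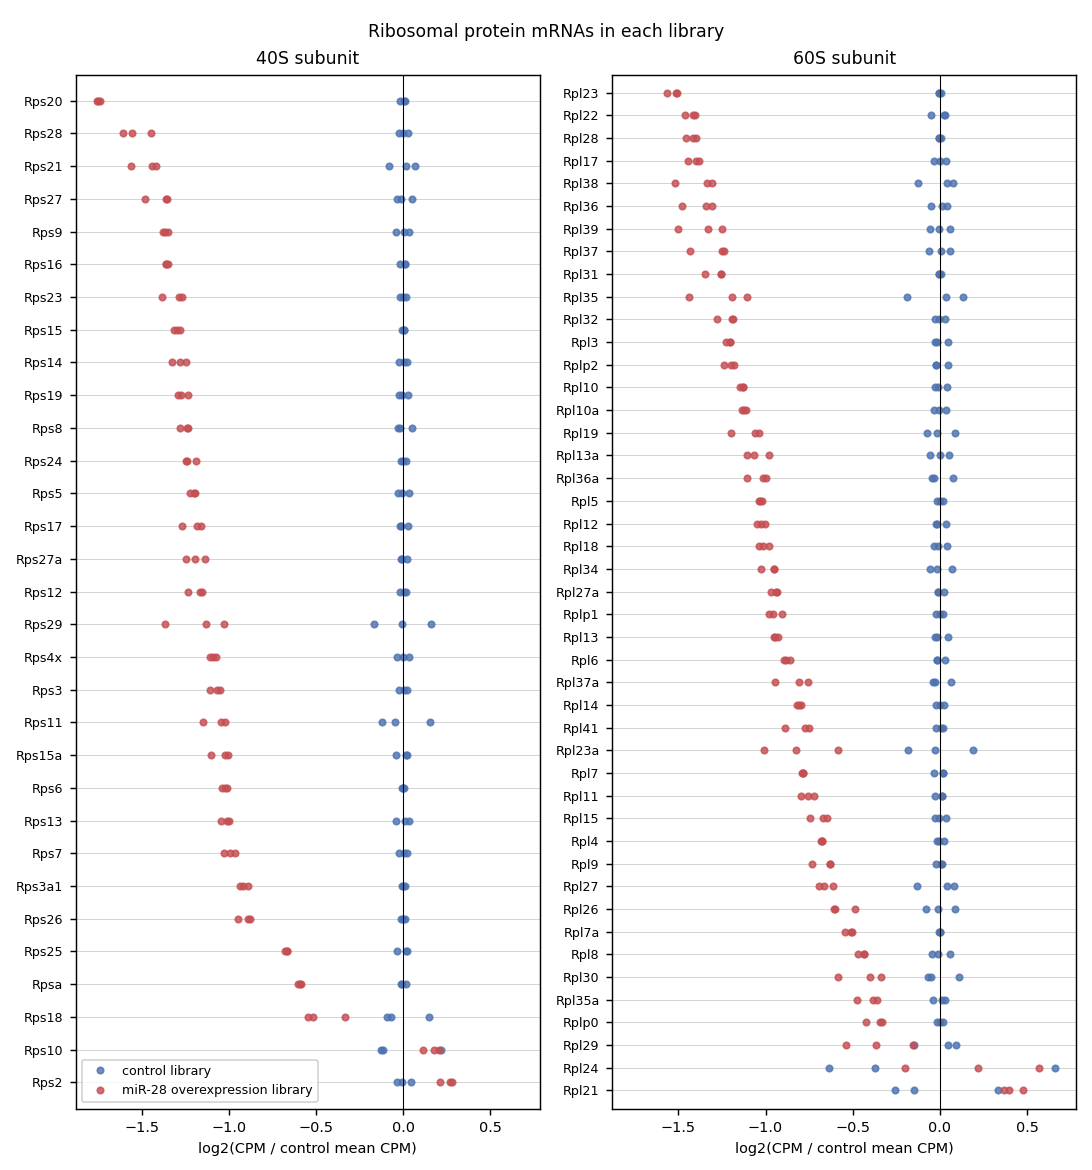
Level of 40S genes (left) and 60S genes (right) in each library, as log2 of its CPM over the control mean, with 3 control points (blue) and 3 overexpression points (red) per gene. The red points lie above all blue points in Rps2 and Rpl21, among them in Rps10 and Rpl24, and below them in all other genes plotted.

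The small subunit binds the mRNA and decodes it. Of its 31 genes, 29 fell, Rps2 rose and Rps10 did not pass the test, with a median log2 fold change of -1.18. Of all genes tested, 43.9% fell and 42.1% rose. The largest fall of the subunit was in Rps20 (chr4:3831334-3835665, minus strand), a protein of the subunit's head. Rps20 read 1649, 1656 and 1619 CPM in the control libraries against 489, 485 and 492 CPM with overexpression, a log2 fold change of -1.75 ± 0.01 (SE from the spread of the libraries' log2 CPM; adjusted p = 4.85e-59, edgeR). The groups are thus far apart, with means of 1642 ± 19.6 and 489 ± 3.55 CPM (SD, n = 3). Rps28, a small protein near the mRNA exit, read 346, 333 and 339 CPM in the control libraries against 111, 115 and 124 CPM with overexpression (log2 fold change -1.53). Rps21 read 377, 339 and 363 CPM against 122, 134 and 133 CPM (-1.47), and Rps9, which helps to keep decoding accurate, 2105, 2217 and 2174 CPM against 850, 832 and 839 CPM (-1.37). In each of these genes the highest overexpression library lay under the lowest control. Rps15, the subunit's most abundant mRNA per length at 2337 FPKM (counts relative to gene length and library total) in the controls, read 1418, 1429 and 1432 CPM and then 573, 579 and 588 CPM (-1.30). Rps3a1 was next in level at 2113 control FPKM and read 1986, 2018 and 1995 CPM against 1044, 1058 and 1079 CPM (-0.91).

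Rps27a fell by about the subunit's median, and Rps3 and Rps6 by less. Rps6, the substrate of the S6 kinases downstream of mTORC1, read 2167, 2156 and 2177 CPM in the control libraries against 1055, 1074 and 1068 CPM with overexpression (log2 fold change -1.02). Rps3, at the mRNA entry, had a log2 fold change of -1.08, and Rps27a, which is made as a fusion with ubiquitin, of -1.19. The smallest falls were in Rps25, Rpsa and Rps18. Rps25, which some viral internal ribosome entry sites need, read 831, 801 and 834 CPM against 515, 517 and 518 CPM (-0.67). Rpsa, also described as a laminin receptor, read 4638, 4709 and 4610 CPM against 3088, 3097 and 3058 CPM (-0.59). Rps18 read 107, 124 and 104 CPM against 88.6, 78.1 and 76.6 CPM (-0.46). The groups stayed apart in all 3. Rps2, which lies at the mRNA entry channel, was the only 40S gene that rose in this fit. It read 170, 180 and 174 CPM in the control libraries against 202, 212 and 210 CPM with overexpression, a log2 fold change of 0.25 ± 0.03 (SE; adjusted p = 1.06e-10, edgeR). With upper quartile scaling in place of TMM the Rps2 value was 0.02 and no longer passed the test, and with a fitted trend on gene length removed it was 0.77, or 0.96 with GC content removed too. Rps10 read 10.6, 10.5 and 13.3 CPM against 12.4, 13.2 and 12.9 CPM, with overlap between the groups (0.17, adjusted p = 0.174, edgeR). Rps10 was higher and passed the test without control library 3 (0.29), with the length trend removed (0.59) and with length and GC removed (1.01), and was at -0.064 with upper quartile scaling.

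The large subunit joins amino acids and holds the exit tunnel. Of its 46 genes, 44 fell, Rpl21 rose and Rpl24 did not pass the test, with a median log2 fold change of -0.96. Of all genes tested, 43.9% fell and 42.1% rose. Among those that fell far, Rpl23 read 1637, 1637 and 1650 CPM in the control libraries against 555, 574 and 578 CPM with overexpression (log2 fold change -1.53). Rpl22, which also binds structured RNA outside the ribosome, read 738, 735 and 699 CPM against 263, 271 and 274 CPM (-1.43). All overexpression libraries of these genes lay under the lowest control, as they did in Rpl28 and Rpl17. Rpl28 read 1021, 1030 and 1020 CPM against 374, 383 and 389 CPM (-1.42). Rpl17, at the tunnel exit, read 973, 997 and 949 CPM against 357, 373 and 369 CPM (-1.41). Rpl3 and Rpl10, proteins that lie close to the catalytic centre, had log2 fold changes of -1.21 and -1.13. Rpl5 and Rpl11, which form a particle with 5S ribosomal RNA that can bind Mdm2, had -1.03 and -0.76.

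Rpl4, which lines the exit tunnel, was the third 60S mRNA by level over the 6 libraries at 1643 FPKM in the controls. It read 3157, 3242 and 3186 CPM in the control libraries against 1992, 1997 and 1997 CPM with overexpression (log2 fold change -0.68). The smallest 60S falls were in Rplp0, described next, and in Rpl35a and Rpl29. Rpl35a read 33.9, 35.6 and 35.1 CPM against 26.7, 27.1 and 25.1 CPM (-0.41). Rpl29 read 18.0, 17.4 and 15.18 CPM against 11.6, 13.1 and 15.16 CPM (-0.34, adjusted p = 0.00289, edgeR), so the groups of Rpl29 almost touched. Rpl21 read 11.1, 16.8 and 12.0 CPM and then 17.2, 17.5 and 18.5 CPM (0.42, adjusted p = 4.82e-04, edgeR), and did not pass with upper quartile scaling (0.19). Rpl24 had few counts, at 0.440, 0.528 and 1.08 CPM and then 0.793, 0.594 and 1.01 CPM (0.23, adjusted p = 0.640, edgeR). In a library, 3 counts were worth 0.188 to 0.216 CPM. The counts of all 60S genes over those of all 40S genes gave a ratio of 1.354, 1.355 and 1.351 in the controls and 1.464, 1.482 and 1.482 with overexpression, without overlap. The 40S share of counts went from 3.84% ± 0.0323 to 1.72% ± 0.0165 (SD, n = 3), and the 60S share from 5.20% ± 0.0519 to 2.54% ± 0.0420 (SD, n = 3).

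The stalk of the large subunit, which recruits the translation factors that hydrolyse GTP, is built from Rplp0, Rplp1 and Rplp2 on a base formed with Rpl12. All 4 fell in this fit, by unequal amounts, but Rplp0 turned to 0.18 with the length trend removed and to 0.19 with length and GC removed, where Rplp1 also lost its call (-0.030, adjusted p = 0.19, edgeR). Rplp2 read 929, 929 and 973 CPM in the control libraries against 401, 417 and 411 CPM with overexpression (log2 fold change -1.20). Rpl12 read 1621, 1678 and 1612 CPM against 792, 818 and 804 CPM (-1.02). Rplp1, the most abundant member at 4207 control FPKM, read 2035, 2060 and 2007 CPM against 1048, 1033 and 1087 CPM (-0.95). Rplp0, the scaffold that binds both P1 and P2, read 2758, 2695 and 2722 CPM against 2028, 2166 and 2150 CPM (-0.37 ± 0.03 SE, adjusted p = 1.88e-25, edgeR). Rplp0 is widely used as a reference gene in quantitative PCR. Of 9 genes mutated in Diamond-Blackfan anaemia, an inherited failure of red cell production, 8 fell (88.9%, beside 94.8% of all subunit genes and 43.9% of all genes tested), with a median log2 fold change of -0.99 over the 9, beside -1.04 over all subunit genes. Rps19, the gene most often mutated there, had -1.27, Rps24 -1.23 and Rps26 -0.91, and Rps10 was the gene that did not pass.

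Levels differed among members more than their changes did. Over the 66 genes of both subunits with at least 60 FPKM in the controls, levels ran from 98.6 to 4207 FPKM. In these 66, 65 fell and Rps2 rose, with a median log2 fold change of -1.09. The other 11 genes (Rpl13a, Rpl21, Rpl23a, Rpl24, Rpl26, Rpl29, Rpl30, Rpl35, Rpl35a, Rps10 and Rps18) lay under 60 FPKM, a limit chosen after their values were seen. Of these 11, 8 fell, Rpl21 rose, and Rps10 and Rpl24 did not pass, with a median log2 fold change of -0.43. For both sets of genes, the shares over all genes tested were 43.9% lower and 42.1% higher. Ribosomal protein genes have many near-identical retrocopies, and the sources used here do not say how reads shared by such copies were counted. Of the 86 tested members, 83 had at least 1 other annotated gene that matched their coding sequence at 95% identity or more over at least 60% of its length, with a median of 5.5 such genes and a maximum of 59, in Rpl21. Rps2 had 27 and Rpl29 had 28. Values of members with such copies are therefore uncertain. Among the 77 subunit genes, the 11 with 0 or 1 copy had a median log2 fold change of -1.20, the 26 with 2 to 5 had -1.06, the 23 with 6 to 10 had -1.04 and the 17 with 11 or more had -0.69. Of the tested members, 19 overlap exons of a gene on the opposite strand, and without strand information those reads cannot be told apart. Exons of other annotated genes on the same strand, many of them small nucleolar RNAs, overlap 28 of the tested members, among them Rps20, Rps2 and Rpl21. Rps10 is overlapped by RPS10-NUDT3, Rpl24 by Gm28037 and Rpl36al by Gm49383. The effect of these overlaps on the counts was not tested.

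**Figure D2:**
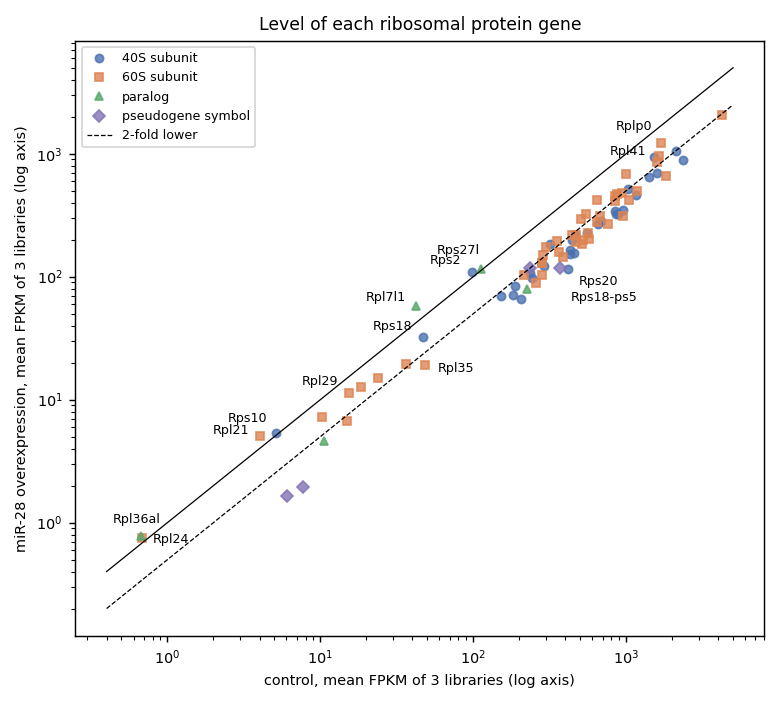
Mean FPKM of tested members in the controls (x axis) and with miR-28-3p overexpression (y axis), both log axes, by class, where the solid line marks equal levels and the dashed line a 2-fold fall. Genes above 60 FPKM cluster around the dashed line, while Rps2, Rps27l and Rpl7l1 lie on or above the solid line, as do Rpl21, Rps10, Rpl24 and Rpl36al at low levels.

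Counts were also assigned to pseudogene copies, and reads of their parent genes may be among them. Of the 7 members with a pseudogene symbol, 3 were at 0 and 4 were tested, of which 3 fell (43.9% of all genes tested fell). Rps18-ps5, a copy of Rps18, read 231, 212 and 208 CPM in the control libraries against 68.0, 74.1 and 78.2 CPM with overexpression (log2 fold change -1.56). Per length Rps18-ps5 stood at 369 FPKM and then 117 FPKM, above Rps18 itself at 47.0 and 32.0 FPKM. Rpl9-ps6 read 164, 157 and 167 CPM against 86.3, 85.4 and 91.0 CPM (-0.89). Rpl36a-ps1 fell from a mean of 3.33 to 0.905 CPM (-1.86, adjusted p = 1.45e-07, edgeR). Rpl10-ps3 read 1.95, 9.50 and 2.03 CPM against 1.44, 1.32 and 1.14 CPM (-1.78, adjusted p = 0.144, edgeR), and control library 2 alone was high. The groups of Rpl10-ps3 do not overlap, and DESeq2 called it lower (adjusted p = 0.0369). In all, 6 members had 0 counts in every library (Rpl10l, Rpl36-ps4, Rpl39l, Rpl9-ps1, Rps18-ps6 and Rps23rg1), and Rpl3l, the form of Rpl3 known from striated muscle, had 2 control counts and 1 overexpression count.

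Paralogs can take the place of the parent protein in the ribosome, and several moved apart from their parents. Rps27l, a paralog of Rps27 known as a p53 target, read 101, 82.5 and 84.9 CPM in the control libraries against 96.4, 95.9 and 101 CPM with overexpression. These groups overlap, and the log2 fold change of 0.13 (adjusted p = 0.0218, edgeR) was lost with DESeq2 (0.0552), with FPKM, with upper quartile scaling (where it was -0.10) and without control library 2, control library 3 or overexpression library 3 (0.191, 0.110 and 0.0921). Its parent Rps27 read 446, 427 and 421 CPM against 154, 169 and 168 CPM (-1.40). Per length, Rps27l stood at 28.9%, 24.7% and 25.8% of Rps27 in the controls and at 79.8%, 72.7% and 76.9% with overexpression. Rpl7l1, which resembles Rpl7 and acts in early 60S assembly, read 141, 148 and 142 CPM against 209, 203 and 209 CPM (0.52, adjusted p = 1.71e-22, edgeR). Relative to Rpl7 it went from 4.74%, 4.99% and 4.98% to 12.3%, 11.9% and 12.3% per length. In both pairs the groups lie far apart.

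Rpl22l1, the paralog that Rpl22 represses in other cells, fell with its parent, from 23.5, 16.8 and 20.5 CPM to 9.01, 10.4 and 9.10 CPM (log2 fold change -1.10). As a share of Rpl22 per length it was 4.66%, 3.35% and 4.30% in the controls and 5.02%, 5.59% and 4.87% with overexpression. Rpl36al read 0.565, 0.660 and 1.40 CPM against 1.08, 1.19 and 1.01 CPM with overlap (0.32, adjusted p = 0.456, edgeR), and its share of Rpl36a rested on 90 counts. Rps27rt, a retrocopy whose reads cannot be separated with certainty from those of Rps27, read 85.9, 76.0 and 82.4 CPM against 26.8, 32.6 and 32.2 CPM (-1.41), and stayed at 52.7% ± 2.63 and 51.9% ± 3.01 of Rps27 (SD, n = 3). Of 9 listed pairs, 5 had counts in every library. The log2 ratio to the parent differed by 1.53 for Rps27l, 1.31 for Rpl7l1, 1.48 for Rpl36al, 0.34 for Rpl22l1 and -0.02 for Rps27rt. The exact two-sided permutation test gave p = 0.1 for the former 4, the smallest that 3 against 3 libraries allow (0.125 after Benjamini-Hochberg adjustment over the 5 pairs), and 0.6 for Rps27rt, so none could pass 0.05.

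**Figure D3:**
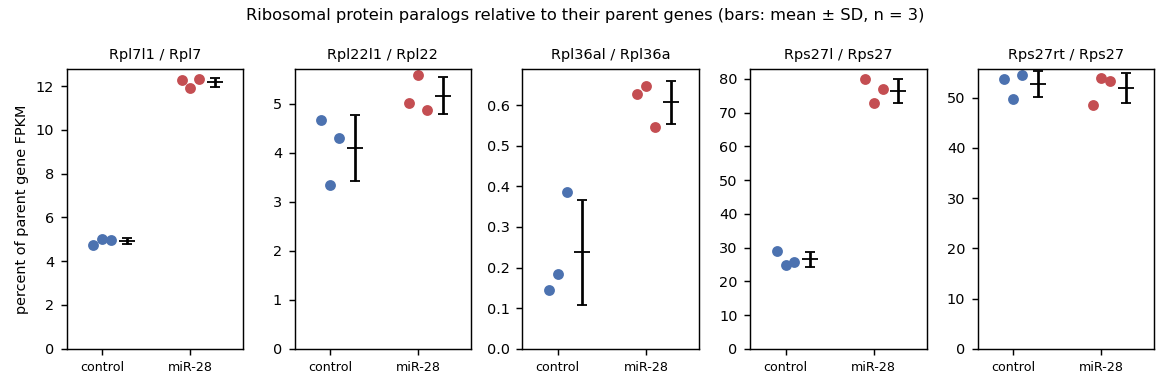
FPKM of each paralog as a percent of its parent gene's FPKM in each control and overexpression library (points), with the mean ± SD of the 3 libraries (bars), each panel on its own axis from 0. Rps27l moved from 26.5% to 76.5% of Rps27 and Rpl7l1 from 4.91% to 12.2% of Rpl7, while Rps27rt stayed near 52%.

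Gene length moved with the groups in these libraries, and most ribosomal protein genes are short. Among other genes the median log2 fold change rose from -0.69 under 1 kb to 0.37 at 6 kb and above. Members lay lower than other genes in each length class. Under 1 kb the 16 members had a median of -1.26 and the 193 other genes -0.69. From 1.5 to 2 kb the medians were -1.10 for 19 members and -0.54 for 696 other genes. The 6 members of 4 kb or more, among them Rps20, Rps3, Rps19 and Rps24, had medians of -1.17 (4 to 6 kb) and -1.13 (6 kb and above), where other genes had 0.02 and 0.37. The deposited gene length used here can exceed the length of the mRNA. Rps19 has 4685 bases there, while its annotated transcript has 438 coding bases and a 3′ UTR of 39. For Rps24 these values were 6256, 402 and 1173, and for Rps20 4080, 360 and 3167. A trend on transcript length was not tested. With a trend on length, fitted on other genes, taken out of each library, 70 members fell (44.1% of all genes) and 9 were higher (41.2% of all genes), and the median of the members was -0.61. With GC content also taken out, 68 fell (44.6% of all genes) and 8 were higher (39.9% of all genes), and the median was -0.64. Taking out length turned the direction of Rplp0 to 0.18, of Rpl29 to 0.27 and of Rpl8, which lies near the catalytic centre, from -0.45 to 0.14. It also ended the calls on Rps18 (-0.06), Rpl27 (-0.093), Rpl23a (-0.18), Rpl26 (0.011) and Rpl7a (0.0067), and made Rps10 and Rpl36al pass as higher. Of the 78 members that fell, 63 moved closer to 0 by a factor over 1.5 or turned sign. Rps20 stayed at -1.67 and Rpl22 at -1.12.

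**Figure D4:**
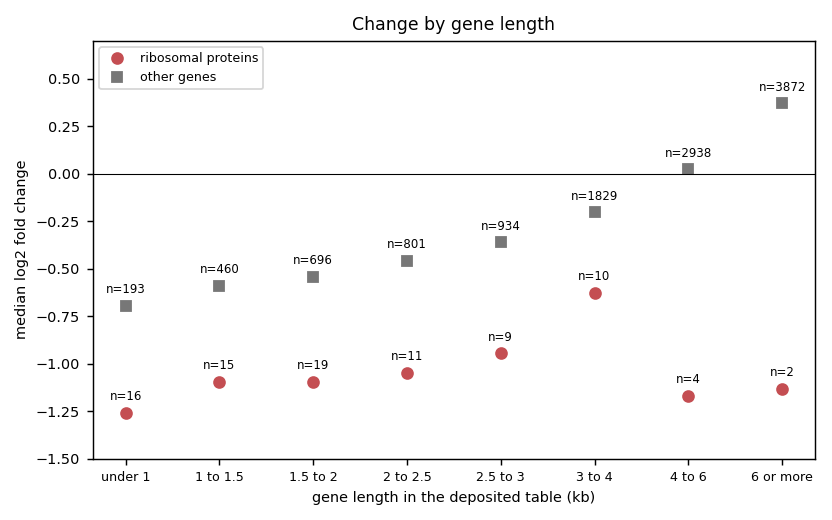
Median log2 fold change (y axis) of ribosomal protein genes (red) and of all other tested genes (grey) in 8 classes of gene length (x axis), with the number of genes at each point. The grey points rise from -0.69 to 0.37 with length, and the red points lie below the grey ones in each class.

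Within the subunits, genes of shorter proteins tended to have larger falls. Across the 77 subunit genes, which share libraries and are not independent replicates, coding length and log2 fold change had r = 0.27 and rho = 0.37, and gene length r = 0.12 and rho = 0.17. Over the 66 genes at 60 FPKM or more, coding length had r = 0.41 and rho = 0.46. The 16 genes with a coding sequence under 350 bases had a median log2 fold change of -1.18 and all fell, where 43.9% of all genes tested fell. The 20 genes of 350 to 449 bases had -1.23, the 25 of 450 to 649 bases -1.02, and the 16 of 650 bases or more -0.84. The spread within a class was wide. Among the longest coding sequences, Rpl4 (1260 bases) was at -0.68 and Rplp0 (954 bases) at -0.37, but Rpl3 (1212 bases) at -1.21 and Rpl5 (894 bases) at -1.03. Among the shortest, Rps28 (210 bases) was at -1.53 and Rpl39 (156 bases) at -1.35, but Rpl41 (78 bases) at -0.80 and Rpl37a (279 bases) at -0.83.

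The tract of C and at least 7 more pyrimidines was found within 30 bases on either side of the start in 31 of the 57 matched subunit genes (54.4%), and in 21.2% of the 16802 genes with a promoter in the reference. RefSeq starts can lie some bases from the start used in these cells. The 31 genes with a tract had a median log2 fold change of -1.02 and the 26 without it -1.03. The letters CCGGAAG, a core that ETS factors such as GABP bind, were found on either strand in the 300 bases from 250 before to 50 after the start in 42.1% of subunit genes and 13.2% of all genes. The medians were -0.93 in the 24 with these letters and -1.05 in the 33 without. AAGATGG, the core of the YY1 site, was found in 15.8% against 7.21% of all genes, CACGTG, the E-box that Myc binds, in 10.5% against 9.16%, and TATAAA in 10.5% against 14.5%. CCGGAAG and AAGATGG can share the letters AAG. The median changes with and without them were -1.04 and -1.02 for AAGATGG, -1.07 and -1.02 for CACGTG, and -1.20 and -1.02 for TATAAA.

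The site ATCTAGT, which pairs with the seed of miR-28-3p, was in none of the 91 members with an annotated 3′ UTR, whose UTRs had a median of 89 bases. It was in 5.90% of the 11577 other tested genes with a 3′ UTR, with a median of 1037 bases. No site says only that these letters are not in the annotated UTR of the transcript used. Sites for the seed of any other microRNA made from the carried gene, and sites elsewhere in the mRNA, were not searched.

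The genes around the ribosomal proteins moved in different directions. Outside the naming rule, Fau, a fusion that gives the 40S protein S30, fell from 1126 ± 7.61 to 406 ± 10.4 CPM (SD, n = 3; log2 fold change -1.47), and Rack1, a 40S scaffold for signalling proteins, from 2655 ± 80.4 to 1317 ± 15.5 CPM (-1.01). Of 16 other mRNAs with a TOP motif, 11 fell and 2 rose (43.9% and 42.1% of all genes tested), with a median of -0.59, or -0.22 with the length trend removed. Tpt1, which codes for the tumour protein TCTP, fell furthest (-1.96), followed by Eif3f (-1.35), and the elongation factors Eef2 (-0.73) and Eef1a1 (-0.45) fell less than most ribosomal proteins. Hnrnpa1 (0.06) and Pabpc1 (0.07) rose by little, and their sign turned with upper quartile scaling (-0.17 and -0.16), as did that of Pabpc1 with length removed (-0.19).

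Chaperones, import receptors and late assembly factors of ribosomal proteins rose in 14 of 18 tested genes, where 42.1% of all genes tested rose, with a median log2 fold change of 0.77 (0.71 with the length trend removed). The import receptors Kpnb1 (1.84), Tnpo1 (1.91), Ipo5 (1.08), Ipo7 (1.09) and Ipo9 (1.40) all rose. Set beside their clients, Grwd1, a chaperone of Rpl3, rose by 1.63 where Rpl3 fell by 1.21. Heatr3, which carries Rpl5 and Rpl11, rose by 1.24 where Rpl5 fell by 1.03 and Rpl11 fell by 0.76. Tsr2, the chaperone of Rps26, rose by 0.64 where Rps26 fell by 0.91. Aamp, the counterpart of a yeast chaperone of Rpl10, fell with it (-0.88 and -1.13). Pdcd2, the chaperone of Rps2, was listed at 0 in all libraries, and Pdcd2l, its relative, had -0.31, which turned to 0.25 with length removed. The other members that fell were Zfp622 (-0.99) and Sbds (-0.49, or -0.013 with length removed), both of late 60S assembly.

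In the list of mTORC1 and LARP1 control, 9 of 15 genes rose and 4 fell (42.1% and 43.9% of all genes tested), with a median of 0.62. These genes are long, with a median of 8464 bases, and with the length trend removed 7 were higher and 5 lower, with a median of 0.063. Larp1, which binds TOP mRNAs, rose by 0.86 on the log2 scale, its relative Larp4 by 1.87, Mtor by 0.97 and the translation repressor Eif4ebp2 by 0.82. Eif4ebp1 (-1.05), the kinase Rps6kb2 (-1.38) and the mTORC1 inhibitors Deptor (-0.46) and Akt1s1 (-0.34) fell. The related kinase Rps6kb1 (0.63) and the inhibitor Tsc1 (0.64) rose, and Tsc2 (0.04) did not pass the test. With the length trend removed Rps6kb1 was at 0.22 and Tsc1 at 0.063. These are mRNA levels, and the activity of the complex was not measured. Of 8 tested factors known at ribosomal protein promoters, 7 rose, where 42.1% of all genes did, among them Sp1 (1.22), Gabpa (0.93), Myc (0.71) and Yy1 (0.37), and Tbpl1 fell (-0.65). With the length trend removed 5 were higher and 2 lower, Yy1 was at 0.13, and the median went from 0.41 to 0.23. The partner of Myc, Max, was at 0.16 with TMM and at -0.067 with upper quartile scaling. Among other large complexes, the 77 tested mitochondrial ribosomal proteins had a median log2 fold change of -0.06 with 36 lower and 25 higher. The 38 tested genes with proteasome symbols, among them Psmc3ip, which is not a subunit, had 0.14 with 10 lower and 22 higher. The 74 nuclear respiratory chain subunits had -0.33 with 47 lower and 9 higher. With the length trend taken out these medians were 0.22, 0.51 and 0.12, and that of the cytosolic ribosomal proteins was -0.61. With upper quartile scaling they were -0.29, -0.09 and -0.56, so the sign of the proteasome median rests on the scaling, and that of the cytosolic ribosomal proteins was -1.28.

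**Figure D5:**
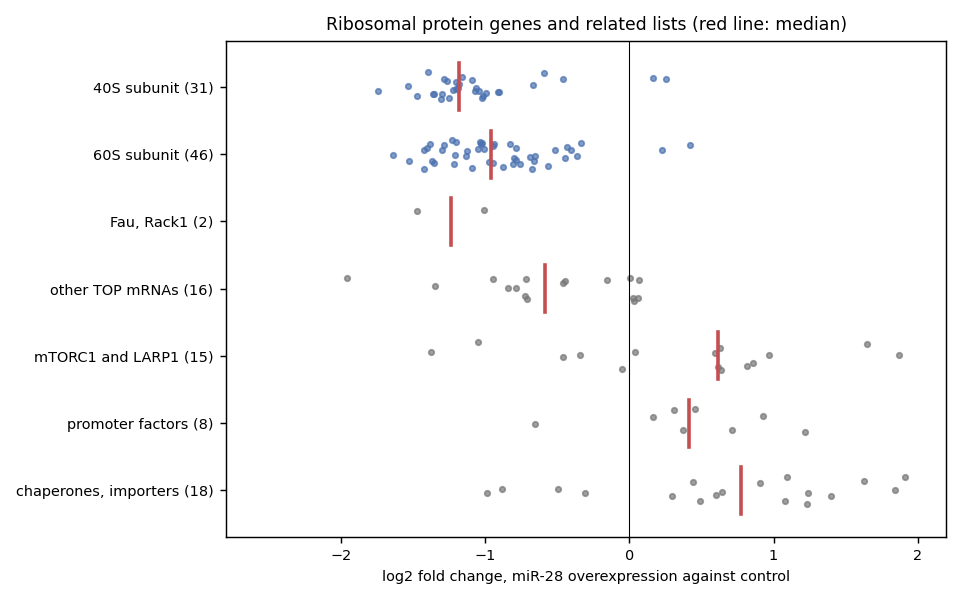
Log2 fold change (x axis) of tested genes in the 40S and 60S subunits (blue) and in related lists (grey), with the number of genes in brackets and the median as a red line; vertical scatter has no meaning. The medians of the 40S and 60S genes lie at -1.18 and -0.96, that of other TOP mRNAs at -0.59, and those of mTORC1 and LARP1 control, promoter factors and chaperones and importers at 0.62, 0.41 and 0.77.

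In the authors' deposited table of fold changes, 78 of 87 listed members were negative and 3 positive at an adjusted p under 0.05, where 32.8% and 31.0% of its 15710 genes were. The log2 fold changes of that table lay within 0.0145 of the edgeR values for every tested member.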

How the data were processed

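The authors deposited whole-number read counts per gene for 6 libraries, and per the file headers FPKM values (counts per gene length and library total) and a gene length. Their table of comparisons, per the file headers, gives log2 fold changes with their adjusted p-values. HISAT2, HTSeq and DESeq are named without versions in the submitters' processing notes, as is the build mm9; the gene coordinates of 21604 of 21936 genes equal those of GENCODE M21 on GRCm38, which is used here. The sources used here do not give the strand setting or the treatment of reads with several matches.

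Counts were tested with edgeR 4.0.16 in R 4.3.3 (TMM scaling, filterByExpr with a minimum count of 10, robust quasi-likelihood test, Benjamini-Hochberg over all 11809 genes tested, threshold 0.05). CPM use TMM-scaled library sizes, and SD is over n = 3 libraries. DESeq2 1.42.0, limma 3.58.1 on log2(FPKM + pseudocount), other scalings, length and GC trends (splines with 5 degrees of freedom) and leaving out each library were alternatives. The scripts were tested on simulated data. Libraries of a group differed by more than counting noise (chi-square per degree of freedom of 1.86 to 2.63), and edgeR's common biological variation was 2.93%. Near-identical copies were found with BLAST+ 2.17.0 against GENCODE transcripts. Coding lengths, GC and 3′ UTRs come from 1 transcript per gene. Members and lists were chosen with earlier results of these data known, and the lists get no test. Members printed with every library's value were the 5 most negative and 5 most positive of each subunit, those not called lower, the paralogs, the stalk and the 3 most abundant of each subunit, except 1 gene that is not reported here; Rps6, Rpl9-ps6 and Rps18-ps5 were added after their values were seen.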

Additional observations from a re-analysis of the deposited data

How the results depend on the processing

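The 78 lower calls on ribosomal protein genes stayed within 1.5 times under each alternative run, with 78 in every fit that left out a library. The median log2 fold change of the members (-1.05) was -1.13, -1.12 and -1.09 with log2 FPKM at pseudocounts of 0.1, 1 and 5, -0.61 with the length trend removed, -0.64 with length and GC removed, and -1.28 with upper quartile scaling, which put the median of all genes at -0.26. Leaving out each library gave -1.06 to -1.03. The 4 higher calls became 0 beyond 1.5-fold, 8 with length and GC removed, 9 with length removed, 1 with upper quartile scaling, and 3 to 4 without a library. Restricted to subunit genes of at least 60 FPKM, an alternative chosen after seeing the data, 65 were lower and 1 higher with a median of -1.09. Over all genes, 3185 were lower and 2762 higher beyond 1.5-fold, against 5184 and 4975. The share of the members fell by 7.48 percentage points of summed FPKM, and fell by 4.82 points of counts. The log2 ratio of Rps27rt to Rps27 (-0.02) ran from -0.064 to 0.027 without a library, and turned positive without control library 3 (0.0041) and without overexpression library 1 (0.027). Among the 32 named genes and 18 settings, 536 values kept direction and call, 21 lost the call, 9 gained it and 10 turned. With length removed Rpl29 was 0.27 and Rplp0 0.18; with length and GC removed Rpl29 was 0.51, Rplp0 0.19 and Rps18 0.067. With upper quartile scaling Rps10 was -0.064 and Rps27l -0.10, and leaving out a library gave -0.0100 (control library 1) to 0.73 (control library 3) for Rpl24. The cause of these turns was not tested. Replicate numbers did not pair the libraries (correlations of same-numbered deviations -0.005, -0.003 and -0.031). With the replicate number as a block, 79 members were lower, Rpl10-ps3 was called at -1.62, and no other named gene changed its call; with the replicate block and length removed the median was -0.61, 9 were higher, Rpl29 was 0.26 and Rplp0 0.18. Low counts limit Rpl24, Rpl36al and Rpl3l, and the cause of these low counts was not tested.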
